A study of Mus musculus with 16 samples.

Results

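The genes described here encode the machinery of homologous recombination, the Fanconi anaemia pathway and the DNA damage checkpoints. They are 35 mouse genes taken from a list of names, out of 29806 genes in the tables. Each of the 35 matched 1 gene row, and all 35 were among the 14179 genes tested after a filter on low counts. RNA sequencing was done on cells sorted from mouse bone marrow, in 4 groups of 4 libraries each. The groups were MPP3 from Jak2V617F mice, MPP3 from wild-type control mice, haematopoietic stem cells (HSC) from Jak2V617F mice and HSC from wild-type control mice. MPP3 are early progenitors that lean toward myeloid output, sorted here as the Fcgr-negative fraction. The V617F form of JAK2, a kinase that relays cytokine signals, signals without the cytokine and drives myeloproliferative neoplasms. The replicate number was also the batch in the labels. The sources used here do not state how the mutant allele was driven, the age or sex of the animals, or whether each library came from a separate animal. The p-values therefore measure only the spread between the libraries, which may be technical.

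Homologous recombination repairs a broken chromosome by copying the intact sister. The broken ends are resected, the BRCA proteins load the recombinase onto the exposed strand, motor proteins drive the search and exchange, and helicases and nucleases resolve the joined molecules. The Fanconi pathway clears crosslinks between the DNA strands: a core complex attaches ubiquitin to the FANCD2 and FANCI pair, which then recruits nucleases and recombination factors. The kinases ATM and ATR, with their effectors CHEK2 and CHEK1, hold the cell cycle while damage or stalled forks remain. Many of these genes are transcribed mainly in dividing cells, and inherited loss of Fanconi genes leads to failure of the blood stem cells.

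Library totals ran from 33108537 to 41230956 estimated counts, with 14439 to 16522 genes detected. The sort markers separated the cell types: Cd48, low on stem cells, averaged 276 ± 40.2 and 185 ± 24.6 CPM (counts scaled to library size with TMM factors; SD, n = 4) in mutant and control MPP3, against 6.74 ± 1.71 and 2.50 ± 0.769 CPM in mutant and control HSC. Mpo, a granule enzyme of myeloid cells, averaged 2410.2 ± 579 and 2492 ± 856 CPM in mutant and control MPP3, while mutant and control HSC averaged 5.36 ± 7.69 and 9.33 ± 6.29 CPM. Slamf1, the CD150 marker of HSC, averaged 2.44 ± 1.03 and 1.88 ± 0.759 CPM in mutant and control MPP3, against 37.6 ± 3.10 and 39.8 ± 13.9 CPM in mutant and control HSC. Fcgr3 averaged 3.38 ± 2.39 and 5.0 ± 3.30 CPM in mutant and control MPP3. Jak2 itself differed by a log2 fold change of 0.25 ± 0.23 (SE; adjusted p = 0.604) between mutant and control HSC and by -0.02 ± 0.23 (adjusted p = 0.998) between mutant and control MPP3, and counts per gene cannot show the V617F base change. Within groups, mutant HSC libraries 1 and 4 were the most alike (r = 0.971 across genes).

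The sequences around the start sites are shown for 4 of the 9 genes that rose in mutant HSC, to set their promoters beside each other, and for Brca2, which did not pass the test there and holds an E2F word. All 4 hold CCAAT, so they do not stand for every gene that rose. The window of Chek1, which also rose, holds none of the words below and is not shown. Windows from RefSeq on GRCm38.p6, each running from 250 bases before to 50 bases after a start site, were found for 29 of the 35 genes (33 windows). Each window is written 5′ to 3′ on the strand of its gene. Capitals mark words found on either strand: the E2F words TTTCCCGC, TTTCGCGC, TTTGCCGC and TTTGGCGC, the CHR words TTTGAA and TTCGAA, and CCAAT, which reads ATTGG on the other strand. E2F factors and the CHR element are known for timing transcription in the cell cycle, and CCAAT is the word bound by NF-Y. No match of 1 word overlapped another in the 33 windows.
Brca1 (chr11:101551906-101552205, minus strand): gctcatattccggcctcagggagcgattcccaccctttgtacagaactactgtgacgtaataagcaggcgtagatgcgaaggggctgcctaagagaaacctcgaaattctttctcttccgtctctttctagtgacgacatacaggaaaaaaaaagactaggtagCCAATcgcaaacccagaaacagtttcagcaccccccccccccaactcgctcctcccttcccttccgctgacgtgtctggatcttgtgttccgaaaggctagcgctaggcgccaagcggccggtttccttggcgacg
Rad54l (chr4:116123640-116123939, minus strand): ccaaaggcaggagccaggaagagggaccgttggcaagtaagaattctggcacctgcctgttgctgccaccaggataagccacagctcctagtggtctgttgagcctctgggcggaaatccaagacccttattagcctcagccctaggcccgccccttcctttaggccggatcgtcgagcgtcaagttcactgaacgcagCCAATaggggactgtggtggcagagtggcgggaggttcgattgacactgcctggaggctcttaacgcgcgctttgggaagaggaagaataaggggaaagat
Blm (chr7:80534949-80535248, minus strand): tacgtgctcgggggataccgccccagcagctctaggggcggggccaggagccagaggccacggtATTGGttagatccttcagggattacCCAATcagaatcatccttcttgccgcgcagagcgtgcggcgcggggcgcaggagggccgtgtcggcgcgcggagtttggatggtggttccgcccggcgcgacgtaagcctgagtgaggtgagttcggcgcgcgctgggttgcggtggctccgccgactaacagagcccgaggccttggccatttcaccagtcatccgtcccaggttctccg
Brip1 (chr11:86201144-86201443, minus strand): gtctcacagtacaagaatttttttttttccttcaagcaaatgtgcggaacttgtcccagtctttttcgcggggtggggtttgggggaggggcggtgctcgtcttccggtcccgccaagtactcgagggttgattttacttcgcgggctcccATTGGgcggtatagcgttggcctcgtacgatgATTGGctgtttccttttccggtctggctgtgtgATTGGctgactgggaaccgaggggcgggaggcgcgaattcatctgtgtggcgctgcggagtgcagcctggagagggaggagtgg
Brca2 (chr5:150522371-150522670, plus strand): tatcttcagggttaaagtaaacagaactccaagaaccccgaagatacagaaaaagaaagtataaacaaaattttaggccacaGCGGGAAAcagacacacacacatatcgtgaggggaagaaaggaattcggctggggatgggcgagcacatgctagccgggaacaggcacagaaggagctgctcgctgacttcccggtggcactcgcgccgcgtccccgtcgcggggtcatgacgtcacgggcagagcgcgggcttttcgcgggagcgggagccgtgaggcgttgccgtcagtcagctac

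CCAAT stood in 23 of the 33 windows of members, against 37.4% of all 32851 mouse windows of the same length. Counting the base just before the start site as -1, it began at position -86 in Brca1, at -51 in Rad54l, at -186 and -161 in Blm, and at -99, -67 and -34 in Brip1. An E2F word stood in 8 of the 33 windows, belonging to 7 genes, against 2.26% of all windows. Brca2 held 1 of them, TTTCCCGC read on the other strand, at position -168, and the others belonged to Bard1, Rad51c, Rmi1, Fancg, Chek2 and Msh6. A CHR word stood in 3 windows of members (Bard1, Rad51b and Atr), against 19.2% of all windows. The 9 windows of genes that rose in mutant HSC (8 genes) held CCAAT in 8 cases and neither an E2F nor a CHR word. Rad54l counts double there, with windows shifted by 1 base, and by gene CCAAT stood in 7 of 8, all but Chek1. Among members that were not called it stood in 15 of 24 windows (13 of 21 genes). An E2F word stood in 8 of those 24 windows (7 of the 21 genes), and in 2.26% of all windows. The difference from the 9 windows was not tested and only exact words were counted, so nothing is read into the absence of E2F words there. These are matches of letters in 1 window per start site and say nothing of which factor binds there.

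Levels compared per length, as the deposited TPM, spanned a wide range among the members. In control HSC the highest were Ube2t at 36.1 ± 7.75 TPM, Rad52 at 33.5 ± 12.4 TPM and Msh6 at 31.4 ± 4.72 TPM, whose ranges overlapped by their SD. The lowest were Fancm at 0.970 ± 0.139 TPM and Rmi2 at 0.977 ± 0.148 TPM, which did not differ beyond their spread. Rad54l ranked 5 in control HSC at 27.3 ± 2.76 TPM, and in mutant HSC it was the highest of the 35 at 54.7 ± 9.67 TPM, next to Ube2t at 51.4 ± 14.1 TPM. The genes most often tied to hereditary cancer were low, with Brca1 at 7.0 ± 1.65 TPM in mutant HSC and 3.70 ± 1.11 TPM in control HSC, and Brca2 at 4.09 ± 0.886 TPM in mutant HSC and 2.21 ± 0.282 TPM in control HSC. Fancf was the most thinly counted member, with as few as 15 counts in a library.

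The comparison of mutant with control HSC asked whether the kinase mutation changes these genes in stem cells. In mutant HSC, 9 of the 35 genes rose and none fell at an adjusted p under 0.05 (quasi-likelihood test of edgeR, adjusted by Benjamini-Hochberg over all 14179 genes). The background was 4.56% of all tested genes higher and 2.74% lower. The 9 genes were Brca1, Rad54l, Blm, Rad51ap1, Exo1, Chek1, Fancb, Brip1 and Fanca, with log2 fold changes of 0.80 to 1.28. Of the 35, 30 had a fitted log2 fold change above 0, against 44.0% of all genes, and the median log2 fold change was 0.51, against -0.06 for all genes. At an unadjusted p under 0.05, 20 members were higher and none lower, where 11.1% of all genes were higher. In 13 members every mutant library lay above every control library, against 7.26% of all genes. In bulk samples, a change in the share of cells that express a gene and a change in its RNA per cell cannot be told apart.

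**Figure D1:**
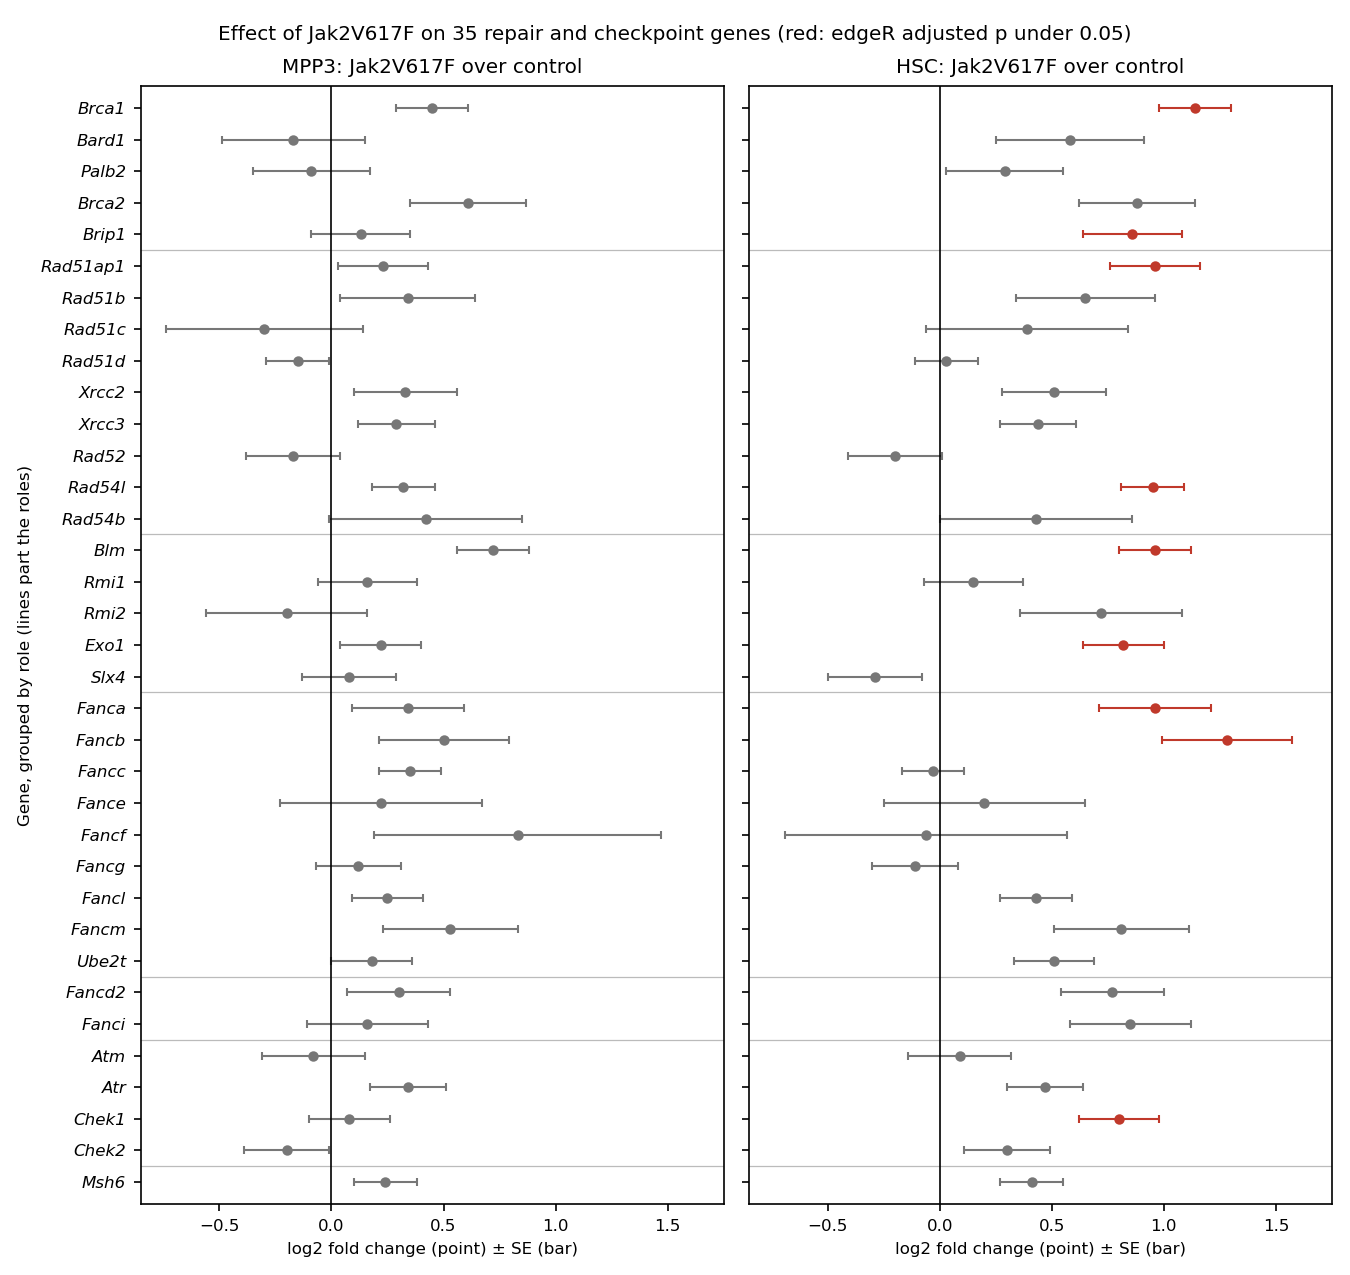
Log2 fold change (point) and SE (bar) of each of the 35 genes in Jak2V617F over control cells, with MPP3 on the left and HSC on the right. Genes run down the page by role, and red marks an adjusted p under 0.05: 9 genes in HSC and none in MPP3.

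Among the proteins of the BRCA complexes, 2 of 5 genes rose in mutant HSC. Brca1, whose product opens the way to recombination at a break and supports the checkpoints, stood at 32.7, 45.0, 29.6 and 29.9 CPM in mutant HSC libraries 1 to 4, against 15.7, 18.9, 13.1 and 14.5 CPM in control HSC libraries 1 to 4. The lowest mutant library was above the highest control library. Its log2 fold change was 1.14 ± 0.16 (SE; adjusted p = 0.000624), the smallest p of the module. Brip1 (FANCJ), a helicase that binds BRCA1, had 49.4, 33.2, 30.4 and 39.0 CPM in the mutant HSC libraries, against 16, 26.5, 19.0 and 21.8 CPM in the control HSC libraries. The groups did not overlap here either, and the log2 fold change was 0.86 ± 0.22 (SE; adjusted p = 0.0263). Brca2, which loads the recombinase and carries the E2F word shown above, averaged 29.1 ± 5.97 CPM in mutant HSC and 15.9 ± 2.21 CPM in control HSC (SD, n = 4 each). All 4 mutant libraries were higher, but the adjusted p was 0.0511 for a log2 fold change of 0.88 ± 0.26 (SE). Bard1, the partner of BRCA1 in its ubiquitin ligase, had a log2 fold change of 0.58 ± 0.33 (adjusted p = 0.328), and Palb2, the bridge between BRCA1 and BRCA2, 0.29 ± 0.26 (adjusted p = 0.583).

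The recombinase mediators and motor proteins gave 2 rises among 9 genes. Rad54l, a DNA translocase that drives strand exchange, was the strongest by level, with 118, 161, 115 and 135 CPM in the mutant HSC libraries, against 69.5, 64.8, 79.7 and 60.8 CPM in the control HSC libraries. All mutant libraries exceeded all control libraries, and the log2 fold change was 0.95 ± 0.14 (SE; adjusted p = 0.000741). Some exonic bases of Rad54l (15.36%) overlap Lrrc41 on the other strand, whose own log2 fold change was -0.45 ± 0.18 (adjusted p = 0.145). Rad51ap1, which stimulates strand invasion by the recombinase, had 53.1, 41.3, 31.6 and 40.1 CPM in the mutant HSC libraries, against 19.2, 16.2, 27.5 and 22.3 CPM in the control HSC libraries. Its log2 fold change was 0.96 ± 0.20 (SE; adjusted p = 0.00803), with no overlap between the groups. The paralogs of the recombinase, which help its filament form, did not pass the test. Their log2 fold changes were 0.65 ± 0.31 for Rad51b, 0.39 ± 0.45 for Rad51c, 0.03 ± 0.14 for Rad51d, 0.51 ± 0.23 for Xrcc2 and 0.44 ± 0.17 for Xrcc3, with adjusted p between 0.128 and 0.934. Xrcc3 nevertheless had no overlap between groups, at 58.4 to 84.0 CPM in mutant HSC and 39.6 to 56.0 CPM in control HSC. Rad54b, the relative of Rad54l, had a log2 fold change of 0.43 ± 0.43 (adjusted p = 0.641). Rad52, which anneals single strands, had one of -0.20 ± 0.21 (adjusted p = 0.683).

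Of the 5 genes for resection, dissolution of joined molecules and nuclease docking, Blm and Exo1 rose. Blm, the helicase at the centre of the dissolving complex, stood at 36.5, 35.1, 26.1 and 29.7 CPM in the mutant HSC libraries, against 15.1, 19.1, 14 and 17.2 CPM in the control HSC libraries. The groups were apart, with a log2 fold change of 0.96 ± 0.16 (SE; adjusted p = 0.00174). Exo1, an exonuclease of end resection and mismatch repair, had 70.5, 74.1, 41.0 and 56.1 CPM in the mutant HSC libraries, against 26.6, 42.2, 34.8 and 33 CPM in the control HSC libraries. It was the only one of the 9 whose groups overlapped, since mutant library 3 lay below control library 2, and its log2 fold change was 0.82 ± 0.18 (SE; adjusted p = 0.00993). The partners of BLM gave log2 fold changes of 0.15 ± 0.22 for Rmi1 (adjusted p = 0.776) and 0.72 ± 0.36 for Rmi2 (adjusted p = 0.265). Some exonic bases of Rmi1 (5.02%) overlap Hnrnpk on the other strand, a far more abundant gene. Hnrnpk averaged 1797 ± 220 CPM in mutant HSC and 1484 ± 89.4 CPM in control HSC, while Rmi1 averaged 29.7 ± 3.52 and 26.8 ± 9.18 CPM. Rmi2 was low, averaging 4.29 ± 1.46 CPM in mutant HSC and 2.61 ± 0.359 CPM in control HSC. Slx4, the scaffold that holds structure-selective nucleases, had the most negative value of the module, a log2 fold change of -0.29 ± 0.21 (adjusted p = 0.46).

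The Fanconi core complex was split. Of its 8 subunits and the ubiquitin-conjugating enzyme Ube2t, 2 rose. Fanca had 30.5, 40.8, 26.3 and 29.6 CPM in the mutant HSC libraries, against 16, 14.9, 19.4 and 14.9 CPM in the control HSC libraries, a log2 fold change of 0.96 ± 0.25 (SE; adjusted p = 0.0282) without overlap. Part of Fanca (10.5% of its exonic bases) overlaps Zfp276 on the other strand, which had a log2 fold change of -0.68 ± 0.37 (adjusted p = 0.299). Fancb, a gene of the X chromosome that helps place the ligase subunit in the complex, had 14, 10.1, 6.98 and 11.3 CPM in the mutant HSC libraries, against 4.02, 3.21, 4.87 and 5.40 CPM in the control HSC libraries. Its log2 fold change of 1.28 ± 0.29 (SE; adjusted p = 0.0137) was the widest of the 35, on a low level. Fancc, Fancf and Fancg, also subunits of the core, had log2 fold changes of -0.03 ± 0.14, -0.06 ± 0.63 and -0.11 ± 0.19 and adjusted p from 0.816 to 0.976. Fance had 0.20 ± 0.45 (adjusted p = 0.864). Fancl, the ubiquitin ligase itself, and Ube2t had log2 fold changes of 0.43 ± 0.16 (adjusted p = 0.117) and 0.51 ± 0.18 (adjusted p = 0.10). Fancm, the translocase that anchors the complex on DNA, had 0.81 ± 0.30 (adjusted p = 0.124). The substrate pair came close to the threshold. Fancd2 averaged 26.6 ± 7.0 CPM in mutant HSC and 15.6 ± 2.90 CPM in control HSC, a log2 fold change of 0.77 ± 0.23 (adjusted p = 0.0539) with no overlap. Fanci averaged 37.2 ± 9.83 CPM in mutant HSC and 20.7 ± 6.57 CPM in control HSC, a log2 fold change of 0.85 ± 0.27 (adjusted p = 0.0677) with overlapping groups.

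Of the checkpoint kinases, Chek1 rose and the other 3 did not pass the test. Chek1, the effector kinase below ATR, had 33.9, 28.1, 28.0 and 29.7 CPM in the mutant HSC libraries, against 18.3, 17.9, 18.8 and 14 CPM in the control HSC libraries. The groups stood well apart, and the log2 fold change was 0.80 ± 0.18 (SE; adjusted p = 0.0135). Atr, which senses exposed single strands at stalled forks, had 40.9, 33.1, 27.9 and 29.6 CPM in the mutant HSC libraries, against 21.4, 26.9, 25.4 and 21.2 CPM in the control HSC libraries. Its groups did not overlap but lay close, with a log2 fold change of 0.47 ± 0.17 (SE; adjusted p = 0.105). Atm, the kinase that answers to chromosome breaks, had 30.4, 32.3, 16.3 and 30.0 CPM in the mutant HSC libraries, against 28.7, 33.4, 21.9 and 18.5 CPM in the control HSC libraries. These ranges overlapped in large part, with a log2 fold change of 0.09 ± 0.23 (SE; adjusted p = 0.889). Chek2, the effector below ATM, had 44.9, 33.6, 38.4 and 31.8 CPM in the mutant HSC libraries, against 29.1, 24, 32.9 and 35.1 CPM in the control HSC libraries, and a log2 fold change of 0.30 ± 0.19 (SE; adjusted p = 0.391). Msh6, which recognises mismatched bases, averaged 139 ± 8.0 CPM in mutant HSC and 105 ± 18.9 CPM in control HSC. All its mutant libraries were above all control libraries, with a log2 fold change of 0.41 ± 0.14 (adjusted p = 0.0824).

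**Figure D2:**
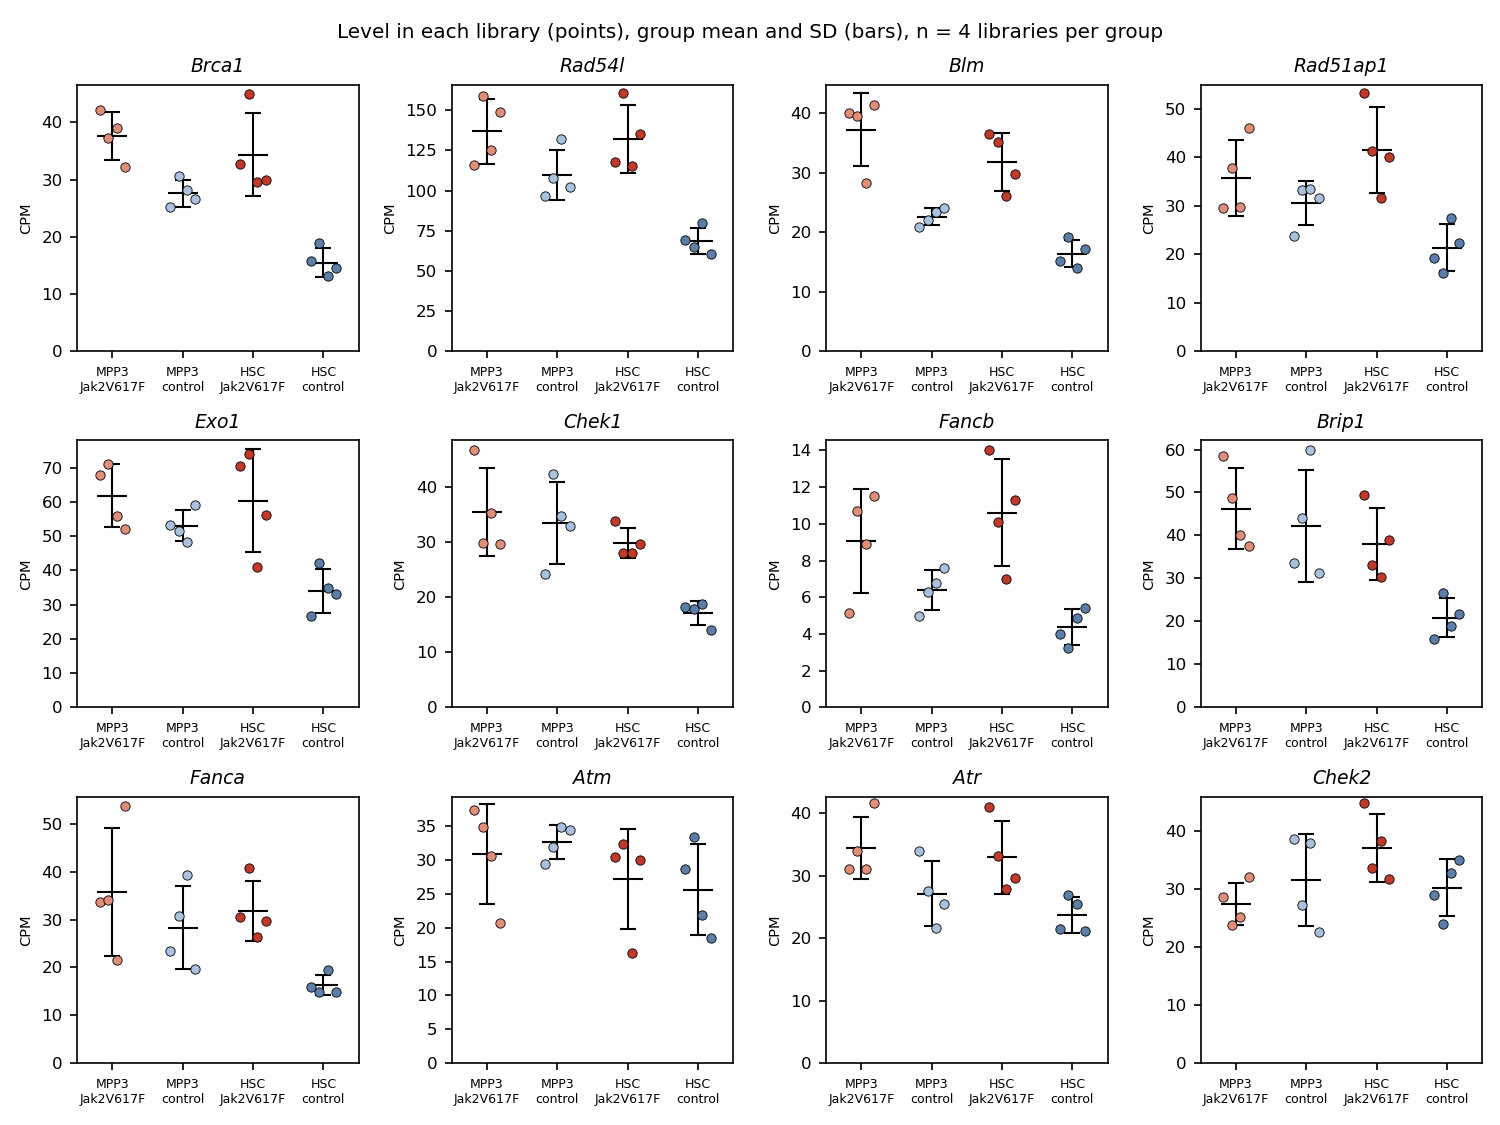
CPM (vertical axis, from 0) in each library (points) with the group mean and SD (bars, n = 4) for the 9 genes that rose in mutant HSC and for Atm, Atr and Chek2. In the 9 genes control HSC is the lowest group on average, and for Atm all 4 groups overlap.

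The count of 9 rested on the libraries in unequal measure. Without mutant HSC library 3, 15 members rose, against a background of 6.48%, and the 6 gained were Brca2, Fancd2, Fanci, Fancl, Fancm and Ube2t. Without mutant HSC library 1, 6 rose, against 2.92%. Libraries 1 and 4 were the most alike, and without both of them 3 genes rose, Brca1, Rad54l and Blm, against 1.20%. DESeq2 called 13 higher, against 7.07%, adding Brca2, Fancd2, Fanci and Msh6. Brip1 lost its call when mutant library 1 or 4 or control library 1, 3 or 4 was left out (adjusted p 0.055 to 0.0973), Fanca when mutant library 1 or 2 or control library 1, 2 or 4 was left out (0.0518 to 0.0788) or with effective-length offsets, and Fancb without mutant library 1 (0.0569). Within batches, taken as mutant minus control on log2(CPM + 1), the median over the 35 genes was 0.86, 0.40, 0.19 and 0.59 in batches 1 to 4. In 18 genes the mutant library was higher in all 4 batches, as it was in 14% of all tested genes.

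**Figure D3:**
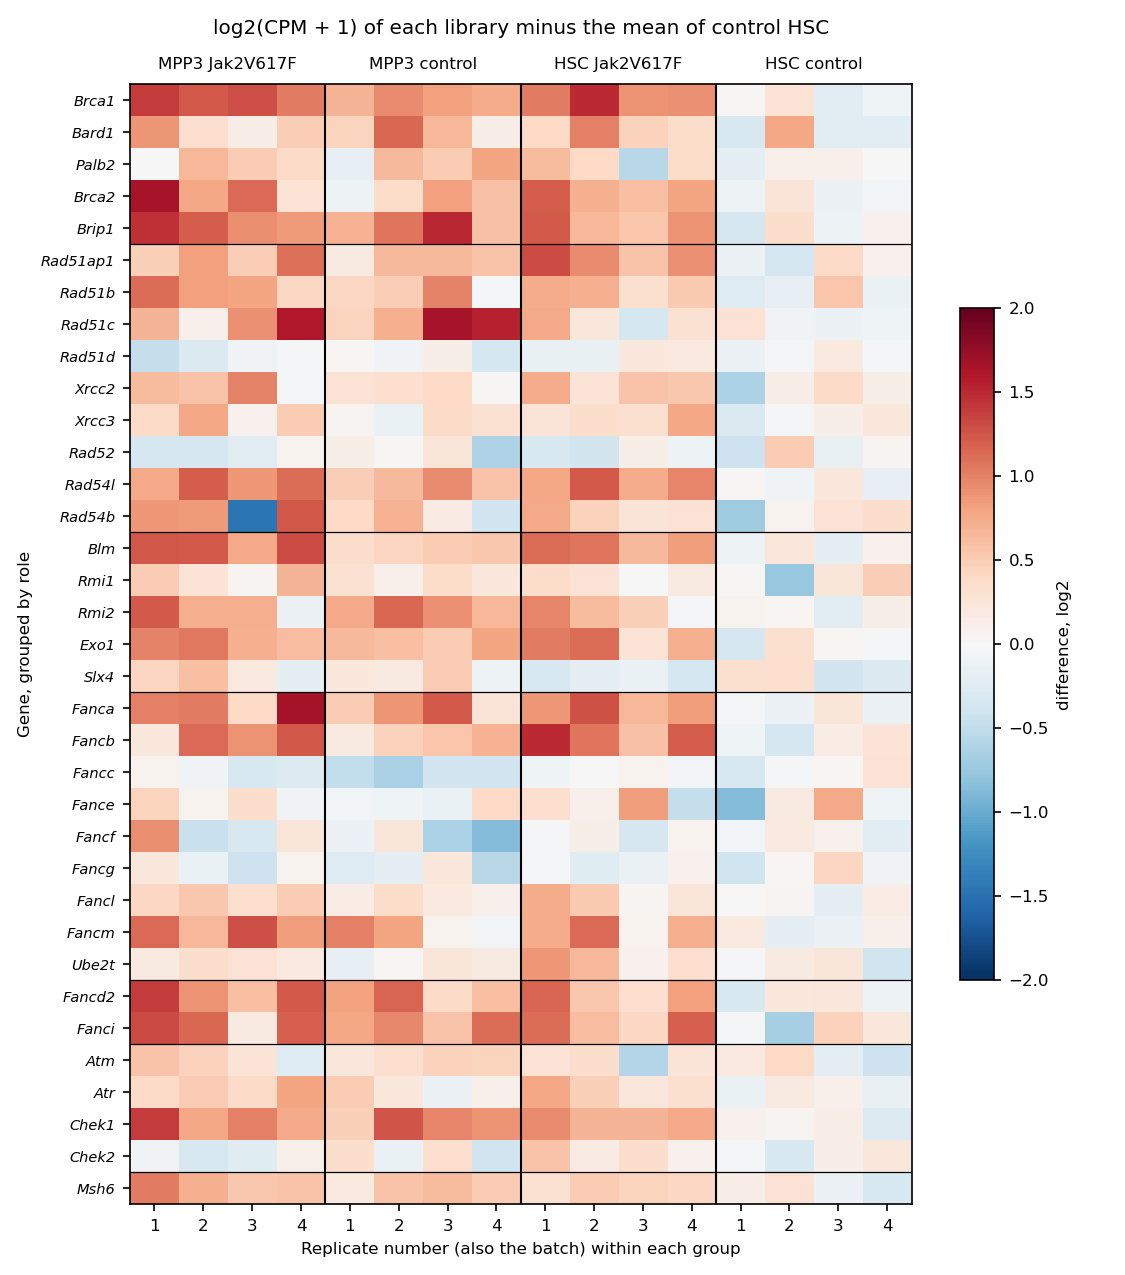
Each column is 1 library, each row 1 of the 35 genes, and the colour gives log2(CPM + 1) minus the mean of control HSC, from -2 (blue) to 2 (red). Mutant HSC libraries are mostly red, with library 3 paler in many rows, while rows such as Rad51d, Rad52, Slx4, Fancc and Fancg stay pale.

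Genes of neighbouring repair routes were counted in the same fit, where 4.56% of all genes were higher and 2.74% lower. This background changed with the fit, and was 2.92% higher without mutant HSC library 1 and 7.07% higher with DESeq2. Among other homologous recombination genes, 9 of 18 rose in mutant HSC and none fell (median log2 fold change 0.68). Fignl1, an ATPase that acts on the recombinase, averaged 102 ± 30.4 CPM in mutant HSC and 42 ± 6.17 CPM in control HSC. Rad18, a ubiquitin ligase of stalled forks, had a log2 fold change of 0.93 ± 0.14 (adjusted p = 0.000894), and Rtel1, a helicase that takes apart joined strands, 0.94 ± 0.18 (adjusted p = 0.00384). This count fell to 5 without mutant HSC library 1, to 5 without control HSC library 4, and to 5 with effective-length offsets. Of 6 genes for end resection, 3 rose: Rbbp8, the starter of resection known as CtIP, averaged 49.4 ± 2.94 CPM in mutant HSC and 25.1 ± 3.95 CPM in control HSC, and Dna2 and Mre11a, both nucleases, had log2 fold changes of 0.78 ± 0.14 (adjusted p = 0.00354) and 0.58 ± 0.13 (adjusted p = 0.0132). Of 14 genes for ATR activation and checkpoint mediation, 5 rose, led by Timeless, Tipin and Clspn, which protect forks and pass the signal to CHEK1. Clspn averaged 39.8 ± 5.66 CPM in mutant HSC and 15.5 ± 5.03 CPM in control HSC. The count was 3 without mutant HSC library 1, 3 without control HSC library 2 and 3 with the groups compared alone.

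Other Fanconi and crosslink repair genes gave 2 rises of 14 (median log2 fold change 0.08), against 4.56% of all genes. These were Eme1, a nuclease subunit, at 1.0 ± 0.20 (adjusted p = 0.00532), and Usp1, which removes ubiquitin from FANCD2, at 0.67 ± 0.19 (adjusted p = 0.0385). Rfwd3, a ubiquitin ligase, had 0.53 ± 0.19 (adjusted p = 0.11). The count was 1 without mutant HSC library 1 or 2 or without control HSC library 1, 2 or 4. In the list for 53BP1, H2AX and the BRCA1-A complex, which steer the choice of repair route, 1 of 15 tested genes rose, Paxip1 at 0.56 ± 0.16 (adjusted p = 0.0446). That share, 6.67%, lay near the 4.56% of all genes. H2afx had 0.52 ± 0.16 (adjusted p = 0.0531) and Rif1 1.41 ± 0.50 (adjusted p = 0.0993). The count of the list was 2 with the batch as a block, DESeq2, RLE scaling or no filter, 3 with effective-length offsets and 0 with the groups compared alone. With a library left out it was 0 without mutant HSC library 2 or 4 or control HSC library 1, 2 or 4, and 2 without control HSC library 3, any mutant MPP3 library or control MPP3 library 1, 2 or 4.

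Non-homologous end joining, which seals breaks without a template, had no called gene among 10 (median log2 fold change -0.13), where 7.30% of all genes were called. At an unadjusted p under 0.05, 2 of the 10 were higher and 1 lower, against 11.1% and 10.6% of all genes, and DESeq2 called 2. Counts this small cannot be told from the background. Paxx had -0.47 ± 0.16 (adjusted p = 0.0756), Prkdc 0.68 ± 0.23 (adjusted p = 0.0868) and Xrcc6 0.33 ± 0.15 (adjusted p = 0.196). With the batch as a block 1 gene was higher. Leaving out control HSC library 1 gave 1 lower call, and leaving out control HSC library 4 gave 1 higher call. Polymerase theta end joining and base excision repair gave 6 rises of 18 (median 0.14), among them Ung, which removes uracil, at 0.75 ± 0.15 (adjusted p = 0.00556), Tdg at 0.78 ± 0.16 (adjusted p = 0.00809) and Parp1, the sensor of nicks, at 0.51 ± 0.11 (adjusted p = 0.0108). None of 6 other mismatch repair genes was called by edgeR (2 higher at an unadjusted p under 0.05), while DESeq2 called 1. Pms1 had 0.66 ± 0.22 (adjusted p = 0.0824), and 2 genes of the list were called without mutant HSC library 3. In nucleotide excision repair, 1 of 17 rose and 1 fell (Xpc, -0.43 ± 0.11, adjusted p = 0.0229), with Ddb1 at 0.20 ± 0.09 (adjusted p = 0.175). Over all genes 4.56% rose and 2.74% fell, so single calls among 17 lay near the background. The 2 calls became 1 without mutant HSC library 1, 2 or 3 or control HSC library 1, and 0 without control HSC library 2 or 4.

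Targets of p53, the factor that damage kinases stabilise, had no called gene among 18, where 7.30% of all genes were called. Their median log2 fold change was -0.43. At an unadjusted p under 0.05, 1 was higher and 3 lower, against 11.1% and 10.6% of all genes, and DESeq2 called 2. These counts are also too small to be told from the background. Bax had 0.30 ± 0.09 (adjusted p = 0.0667), Mdm2 -0.42 ± 0.14 (adjusted p = 0.0678) and Sesn2 -0.77 ± 0.29 (adjusted p = 0.125). With the batch as a block, with effective-length offsets, with limma-voom, and without mutant HSC library 3, control HSC library 4 or control MPP3 library 1, 1 target was lower. Without any 1 of the mutant MPP3 libraries, or without control MPP3 library 2, 1 target was higher. All 22 S phase genes and 19 of 20 mitosis genes rose in mutant HSC, with medians of 0.90 and 0.91. Tyms, which makes thymidylate, averaged 225 ± 26.3 CPM in mutant HSC and 108 ± 10.7 CPM in control HSC. Cdk1, the kinase of mitotic entry, averaged 133 ± 13.6 CPM in mutant HSC and 65.3 ± 2.42 CPM in control HSC. Tk1 and Lig1 from the S phase list and Ccnb1 and Cenpa from the mitosis list had log2 fold changes of 1.08 ± 0.12, 0.96 ± 0.11, 1.15 ± 0.14 and 0.84 ± 0.11, with adjusted p from 0.000163 to 0.00026. Without mutant HSC libraries 1 and 4 together, 18 S phase genes, 10 mitosis genes, 2 of the other homologous recombination genes, 1 resection gene, 2 checkpoint mediators, 1 gene of the 53BP1 list, 1 of the base excision list and none of the other lists were called. In that fit 1.20% of all genes were called higher.

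**Figure D4:**
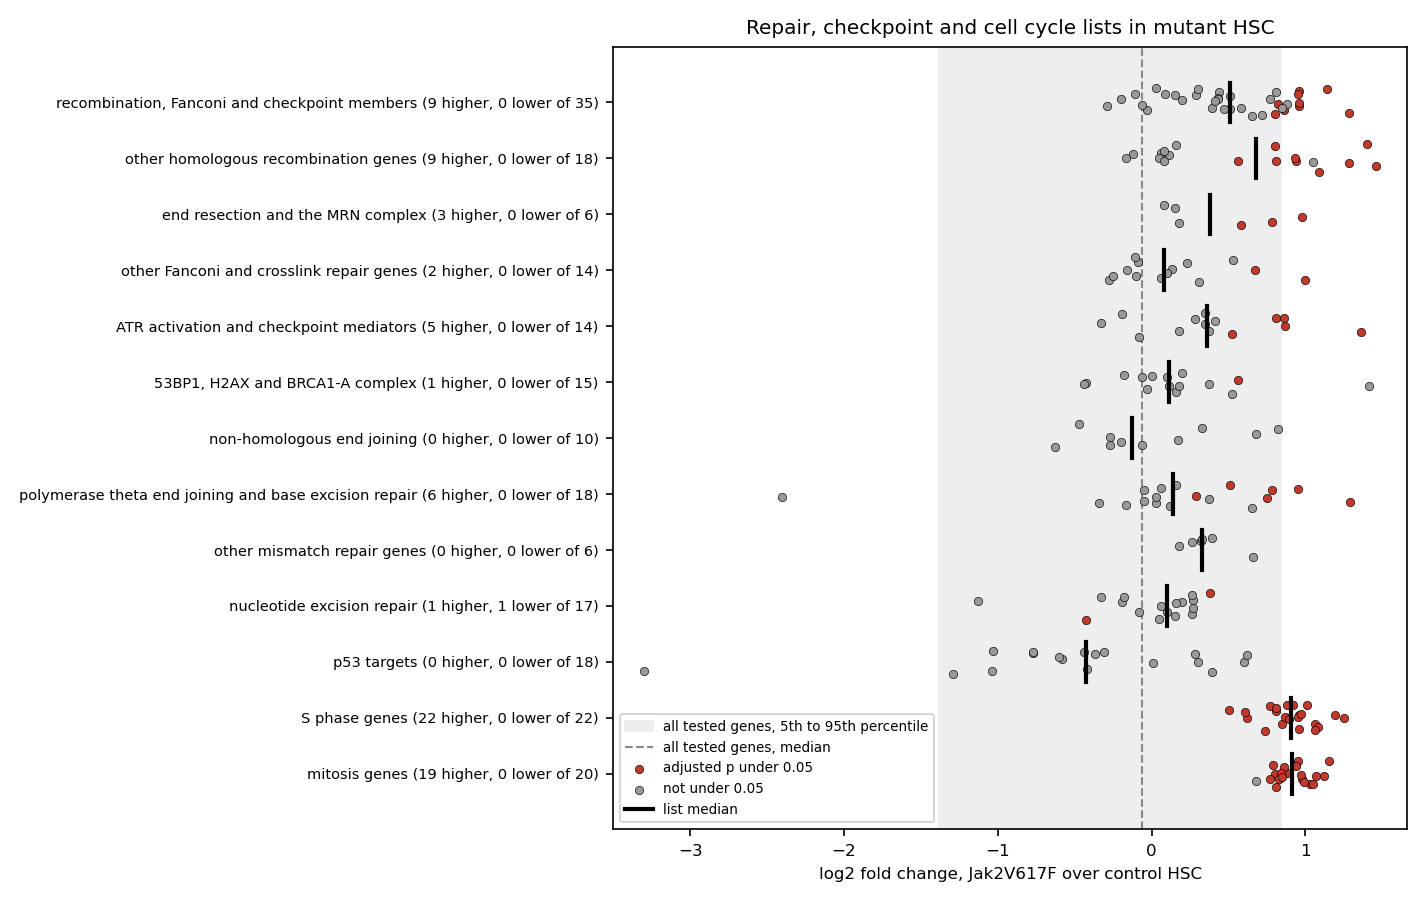
Log2 fold change of mutant over control HSC for each gene (point) of the 35 members and of 12 neighbouring lists, with the list median (black bar) and the 5th to 95th percentile of all tested genes (grey). Red points have an adjusted p under 0.05, and all 22 S phase genes and 19 of 20 mitosis genes are red.

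Summed over the 35 members, the level was 1049 to 1263 CPM in mutant HSC and 769 to 890.4 CPM in control HSC. Summed S phase genes moved in the same direction, with 6015 to 8317 CPM in mutant HSC and 3736 to 4576 CPM in control HSC. Per unit of S phase RNA, the members came to 14.3 to 17.4% in mutant HSC and 18.5 to 23.7% in control HSC, so the ranges did not overlap and the mutant was lower. The part of the cell cycle genes in the result was not tested. Markers of cell types moved too: the summed stem cell markers stood at 1749 to 1955 CPM in mutant HSC and 3111 to 3177 CPM in control HSC, and 5 of 10 fell, among them Procr, Fgd5, Mllt3 and Hlf. Cd48 and 2 of 6 megakaryocyte markers (Itga2b and Pf4) rose, the summed megakaryocyte list standing at 947 to 1433 CPM in mutant HSC and 737 to 1022 CPM in control HSC. Vwf of the same list went the other way, averaging 162 CPM in mutant HSC and 219.8 CPM in control HSC, and was not called. Summed early myeloid markers were at 578 to 749.9 CPM in mutant HSC and 660.4 to 859.9 CPM in control HSC, and Prtn3 fell. Nkg7 of the T and NK cell list rose, averaging 153 CPM in mutant HSC and 60.6 CPM in control HSC. The whole list summed to 135 to 173 CPM in mutant HSC and 63.7 to 93.5 CPM in control HSC, while the T cell marker Cd3e was under 1 CPM in all 16 libraries. The NK receptor Klrb1c went the other way, averaging 5.32 CPM in mutant HSC and 14.2 CPM in control HSC, and was not called. Cd79b of the B cell list fell, averaging 58.6 CPM in mutant HSC and 78.4 CPM in control HSC. The whole B cell list summed to 53.4 to 66.9 CPM in mutant HSC and 72.5 to 94.3 CPM in control HSC. The part of these markers in the result was not tested. The macrophage and dendritic cell list had no called gene, at 605 to 1679 CPM in mutant HSC and 183 to 1041 CPM in control HSC. Nearly all of that sum came from Cd74, with a mean of 938 CPM for the mutant HSC group and 655 CPM for its control. Cd68 had means of 23.5 CPM (mutant HSC) and 16.6 CPM (control HSC). C1qa, C1qb and Adgre1 were low and went the other way. Their mutant HSC means were 0.0906, 1.32 and 0.0485 CPM, and their control HSC means 1.27, 3.4 and 0.0871 CPM. The granulocyte-monocyte gate, neutrophil, erythroid, mast cell and basophil, and stroma lists also held no gene called by edgeR in HSC, and Prss34, a basophil marker, was at 0 throughout.

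In MPP3 the same comparison of mutant with control gave no called member among the 35 by edgeR or limma-voom, where edgeR called 0.0635% of all genes. At an unadjusted p under 0.05, 5 members were higher (Blm, Brca1, Fancc, Rad54l and Brca2) and none lower, against 6.31% of all genes higher. The median log2 fold change was 0.23, and 27 of 35 values were above 0, against 46.7% of all genes. Blm came nearest, with 40.0, 39.4, 28.2 and 41.4 CPM in mutant MPP3, against 20.9, 22.1, 23.4 and 24.1 CPM in control MPP3. All 4 mutant libraries were higher than all control libraries, as in 3 members here and 3.65% of all genes, and the log2 fold change was 0.72 ± 0.16 (SE; adjusted p = 0.0825). Blm passed the threshold in 3 other fits: with the batch as a block (adjusted p = 0.0482, against 0.176% of genes higher), with DESeq2 (0.00412, against 1.15%) and without mutant MPP3 library 3 (0.0166, against 0.744%). Brca1 averaged 37.6 ± 4.13 CPM in mutant MPP3 and 27.6 ± 2.32 CPM in control MPP3, a log2 fold change of 0.45 ± 0.16 (adjusted p = 0.218), also without overlap. The third without overlap was Fancc, at 32.1 ± 4.29 CPM in mutant MPP3, against 25.3 ± 2.26 CPM in control MPP3 (0.35 ± 0.14, adjusted p = 0.281). Chek1, called in HSC, stood at 46.9, 29.9, 35.4 and 29.8 CPM in mutant MPP3, against 24.3, 42.5, 34.8 and 33 CPM in control MPP3, and these ranges overlap in large part. The members most apart in direction were Rad51c at -0.30 ± 0.44 and Fancf at 0.83 ± 0.64, both with few counts. No gene of the S phase or mitosis lists was called in MPP3, although 13 of 22 and 9 of 20 were higher at an unadjusted p under 0.05.

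MPP3 were set against HSC within control mice to ask how the genes differ between the myeloid-biased progenitor and the stem cell. In control MPP3, 10 of the 35 genes were higher than in control HSC and 1 was lower, against 6.67% and 6.91% of all genes. The median log2 fold change was 0.47, with 29 of 35 above 0 against 49.5% of all genes. Chek1 averaged 33.6 ± 7.48 CPM in control MPP3 and 17.2 ± 2.20 CPM in control HSC, a log2 fold change of 0.97 ± 0.18 (adjusted p = 0.00179). Brca1 followed at 0.83 ± 0.16 (adjusted p = 0.00219), Rad54l at 0.68 ± 0.14 (adjusted p = 0.00312) and Brip1 at 1.02 ± 0.22 (adjusted p = 0.00567). The other 6 that were higher were Exo1, Msh6, Fancd2, Rad51c, Fanca and Fanci, with log2 fold changes of 0.48 to 1.49 and adjusted p of 0.0252 to 0.0473. Rad51c had the widest difference on a low level, at 6.11 ± 2.80 CPM in control MPP3, against 2.17 ± 0.443 CPM in control HSC. Fancc was the exception: it stood at 24.9, 22.2, 26.9 and 27.1 CPM in control MPP3, against 28.4, 35, 36.7 and 43.6 CPM in control HSC. Its log2 fold change was -0.51 ± 0.14 (SE; adjusted p = 0.0253), with no overlap. Groups were apart in 11 members upward and 1 downward, against 9.25% and 10.2% of all genes.

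The count of 11 between control cell types moved with single libraries. It was 6, 6 and 4 without control HSC library 1, 3 or 4, and 6, 5, 7 and 7 without control MPP3 library 1, 2, 3 or 4, while 9.65% to 11.1% of all genes were called when 1 of the 8 control libraries was left out. Chek1, Brca1, Rad54l and Brip1 kept their calls in each of these fits, although Brca1 did not pass with effective-length offsets (adjusted p = 0.0564). With the batch as a block the count was 12, since Fanca lost its call (adjusted p = 0.068) and Blm and Rmi2 gained one (0.0359 and 0.0487). This comparison shares the control HSC libraries with that of mutant and control HSC, so the values below are set side by side only. For Brca1 the log2 fold change was 1.14 in mutant over control HSC and 0.83 in control MPP3 over control HSC. For Fancb these values were 1.28 and 0.55, for Rad51ap1 0.96 and 0.52, for Blm 0.96 and 0.47, for Chek1 0.80 and 0.97, and for Msh6 0.41 and 0.48. In the neighbouring lists, 20 of 22 S phase genes and 13 of 20 mitosis genes were higher in control MPP3 than in control HSC, against 6.67% of all genes.

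In mutant mice no member was called between MPP3 and HSC by edgeR, DESeq2 or limma-voom, where edgeR called 8.36% of all genes. At an unadjusted p under 0.05 there were 3, against 20.4% of all genes: Slx4 at a log2 fold change of 0.55 ± 0.21, Msh6 at 0.31 ± 0.14 and Chek2 at -0.44 ± 0.19. The median was 0.13, and 26 of 35 were above 0, against 50.2% of all genes. Brca1 stood at 37.6 ± 4.13 CPM in mutant MPP3 and 34.3 ± 7.25 CPM in mutant HSC, Rad54l at 137 ± 20.2 CPM in mutant MPP3 and 132 ± 21.2 CPM in mutant HSC, and Exo1 at 61.8 ± 9.20 CPM in mutant MPP3 and 60.4 ± 15.1 CPM in mutant HSC. Each of these differences was smaller than the SD of either group. Summed over the 35 genes, the level was 1116 to 1361 CPM in mutant MPP3, 1002 to 1206 CPM in control MPP3, 1049 to 1263 CPM in mutant HSC and 769 to 890.4 CPM in control HSC.

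Whether the mutant effect differed between the cell types was tested directly, as the effect in MPP3 minus that in HSC. No member was called by edgeR, DESeq2 or limma-voom, where edgeR called 0.0423% of all genes. At an unadjusted p under 0.05, 6 members had a smaller effect in MPP3 and none a larger one, against 3.73% of all genes: Rad54l, Brca1, Chek1, Rad51ap1, Exo1 and Brip1. Their differences ran from -0.73 to -0.60 on the log2 scale, and Rad54l had the smallest adjusted p of 0.435. Of all 35 differences 7 were above 0, against 49.9% of all genes, and the median was -0.28. A rise called in HSC and not in MPP3 was therefore not shown to differ between the cell types for any of the 35 genes.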

How the data were processed

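RNA was isolated from sorted cells, amplified with the SMARTer Ultra Low kit and sequenced, per the labels' protocols. The tools cutadapt 4.0, FastQC, HISAT2 and Salmon and the build GRCm38 are named in the submitters' processing notes, without roles. The deposited tables hold, per the file headers, estimated counts, TPM (scaled for length and library total by the authors' run) and an effective length in bases for each gene. Of 31716 rows, 1910 named transcripts and not genes (0.7 to 0.8% of counts) and were left out, leaving 29806.

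Estimated counts were rounded and fitted in edgeR 4.0.16 (R 4.3.3) by quasi-likelihood with TMM scaling, 1 term for each of the 4 groups, a filter on low counts by group and Benjamini-Hochberg adjustment over 14179 genes. The script was tested on simulated data. Alternatives were DESeq2 1.42.0, limma-voom (limma 3.58.1), RLE scaling, no filter, effective-length offsets, each pair of groups alone, the batch as a block, each library left out and mutant HSC libraries 1 and 4 left out together. TPM served only to compare levels between genes. Replicate numbers are batches in the labels and so pair the samples. Same-numbered samples deviated from their group means together only weakly, with correlations of -0.03 to 0.16 in 24 comparisons. The same-numbered sample was nevertheless the best match in 16 of the 24. With the batch as a block, 82 of all tested genes were called between mutant and control MPP3, against 9 without it.

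The members and the gene lists were chosen with earlier results of these data known. Every library is given for members called in mutant HSC and for the checkpoint kinases, and each neighbouring list is represented by the 3 genes with the smallest adjusted p in HSC. A few genes of the neighbouring and marker lists are counted but not reported here by name. The sources used here do not state whether counting used strand, so reads of overlapping genes on opposite strands cannot be told apart. Beside the overlaps given above, Polg covers 15.95% of the exonic bases of Fanci and Vrk2 13.7% of those of Fancl, among others. Fsbp shares 35.77% of the exonic bases of Rad54b on the same strand.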

Additional observations from a re-analysis of the deposited data

Results flagged for a closer look

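Single libraries stood far from the other 3 of their group in 9 of 140 groups of member values, where chance would give about 7. Bard1 was highest in mutant HSC library 2 (12.5 CPM, the others 7.67 to 8.23) and in control HSC library 2 (10.4 CPM, the others 4.36 to 4.77). In mutant HSC, Xrcc3 was highest in library 4 (84.0 CPM, the others 58.4 to 62.4) and Atm lowest in library 3 (16.3 CPM, the others 30.0 to 32.3). In control HSC, Brca2 was highest in library 2 (19.1 CPM, the others 14.5 to 15.2), Rad51b in library 3 (6.48 CPM, the others 3.27 to 3.67) and Rad51c in library 1 (2.83 CPM, the others 1.90 to 1.99). In mutant MPP3, Blm was lowest in library 3 (28.2 CPM, the others 39.4 to 41.4). In control MPP3, Fance was highest in library 4 (4.49 CPM, the others 2.79 to 3.04).

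Outside the 35 members, the mutant effect on Tyms differed between the cell types by -0.90 ± 0.14 on the log2 scale (SE, MPP3 minus HSC; edgeR, adjusted p = 0.0327). Its log2 fold change was 0.15 ± 0.10 in MPP3 and 1.06 ± 0.10 in HSC.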

How the results depend on the processing

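In mutant against control HSC the count of 9 members was 3 without mutant HSC libraries 1 and 4, and 6 to 15 with 1 library left out. In MPP3 the count of 0 was 1 with DESeq2, 1 with the replicate block and 0 to 1 with 1 library left out, the called gene being Blm. For control MPP3 against control HSC the count of 11 was 7 with effective-length offsets and 4 to 13 with 1 library left out. The count stayed at 0 in every fit run for mutant MPP3 against mutant HSC and for the difference of effects. The log2 fold change of Atm in HSC changed sign with effective-length offsets (-0.03), without mutant HSC libraries 1 and 4 (-0.08) and with 1 library left out (-0.04 to 0.31); the cause was not tested. With the replicate block, 9 members were called in HSC and 12 between the control cell types. Low counts limit Fancf, Rad51c, Fance and Rmi2.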
